A study of Mus musculus with 24 samples.

Results

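Small RNA was compared between mouse CD4+ T cells stimulated in the presence of the solvent DMSO and CD4+ T cells that had been stimulated earlier and then rested. All cells came from the spleen and lymph nodes of wild-type C57BL/6 mice. DMSO is the vehicle of GW4869, an inhibitor of neutral sphingomyelinase. The members were chosen by sample title and not by any measured value: 3 libraries of DMSO-stimulated cells and 3 of resting cells, 6 of the 24 libraries of the series. Rest here means 2 days in medium with interleukin 2, after 2 days of stimulation and 1 day of expansion, so these cells had been activated once and were not naive. The DMSO group was stimulated for 3 days with the vehicle present, and its label gives no antibody or dose. The stimulated and the GW4869 cells are given for reference, 3 libraries each. The stimulated cells had 3 days of anti-CD3 at 2 µg/ml and anti-CD28 at 5 µg/ml, and the GW4869 cells 3 days of stimulation with the inhibitor. Nothing in the labels says that replicates came from separate animals or cultures, so p-values measure the spread between libraries, which may be technical. For the edgeR tests this spread was estimated over all 24 libraries of the series, those of extracellular vesicles among them.

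MicroRNAs (miRNAs) are short RNAs cut from hairpin precursors. They guide Argonaute proteins to messenger RNAs, mainly through the seed, the bases 2 to 8 of the mature strand, and lower the output of those messages. Activated T cells are known to raise miR-155 and miR-146a, to lower miR-150, and to reduce much of their Argonaute-bound miRNA. A small RNA library also holds fragments of tRNAs, ribosomal RNA, the small nucleolar RNAs (snoRNAs) that direct modification of ribosomal RNA, the spliceosomal small nuclear RNAs (snRNAs) and mitochondrial RNAs.

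The mature miRNAs below are shown because their precursors carry the main differences or because they share a seed and yet differed in direction. They are RefSeq sequences (GRCm38.p6), 5′ to 3′, and capitals mark the seed. The data name precursors only, without arms. The miR-17 and miR-20a seed is that of miR-93 and miR-106b, and miR-132 shares its seed with miR-212, miR-26a with miR-26b, and miR-221 with miR-222.
miR-155-5p: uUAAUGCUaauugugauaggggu
miR-146a-5p: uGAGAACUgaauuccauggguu
miR-132-3p: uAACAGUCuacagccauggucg
miR-212-3p: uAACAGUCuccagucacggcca
miR-139-5p: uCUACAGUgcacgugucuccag
miR-26a-5p: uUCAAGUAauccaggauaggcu
miR-26b-5p: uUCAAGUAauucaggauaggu
miR-221-3p: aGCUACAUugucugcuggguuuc
miR-222-3p: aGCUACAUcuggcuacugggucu
miR-182-5p: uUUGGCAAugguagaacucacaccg
miR-96-5p: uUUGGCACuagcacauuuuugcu
miR-183-5p: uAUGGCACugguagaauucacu
miR-17-5p: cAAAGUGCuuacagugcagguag
miR-20a-5p: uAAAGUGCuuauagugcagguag
miR-93-5p: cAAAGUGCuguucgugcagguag
miR-106b-5p: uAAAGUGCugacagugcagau
miR-101a-3p: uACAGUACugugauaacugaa
miR-101b-3p: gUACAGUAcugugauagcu

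The deposited counts summed to between 1962923 and 2268358 in the resting libraries and between 1551155 and 2007709 in the DMSO libraries. Every library listed the same 4408 features, each with at least 4 reads in all 24 libraries. The 10 most abundant features held 59.7% to 62.8% of the counts of a resting library and 43.7% to 46.8% of a DMSO library, and Mir142hg, the gene that holds Mir142, led in all 6. The counts appear to come from 2 separately made tables of the authors, 1 with the resting and stimulated libraries and 1 with the DMSO and GW4869 libraries, which shows in 5 names that stand on several lines with the counts of one table repeated against different counts of the other. Vehicle, culture and separate tabulation therefore cannot be told apart in any difference between the DMSO and the stimulated libraries. Between the DMSO and the resting libraries, stimulation cannot be told apart from these either. All 7 miRNAs fixed as T cell markers were listed. Of 29 markers fixed for other cell types 5 were listed, among them Mir451a of red cells, and the myeloid Mir223, the liver Mir122 and all muscle and stromal markers were not.

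The make-up of the libraries differed between the groups in nearly every RNA class. miRNAs held 54.5%, 54.1% and 53.5% of the counts in the 3 resting libraries and 42.3%, 40.7% and 39.8% in the 3 DMSO libraries, a fall in the mean of 13.1 percentage points. Ribosomal RNA fragments went the other way, from 0.454% ± 0.0716 (SD, n = 3) to 4.61% ± 0.743 (SD, n = 3), 10.2-fold. Fragments of mitochondrial tRNAs were at 0.0329%, 0.0351% and 0.0365% in resting cells and at 0.32%, 0.341% and 0.353% in DMSO cells, a 9.69-fold difference in the means. None of these 3 classes overlapped between the groups.

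The same direction held for snoRNAs (0.861% against 2.34%), snRNAs (0.178% against 0.822%), mitochondrial rRNA (0.0947% against 0.555%) and Y and vault RNAs (0.0674% against 0.132%). Fragments inside protein-coding and long non-coding genes that hold no listed small RNA made up 5.83% ± 0.219 (SD, n = 3) of resting and 13.0% ± 0.772 (SD, n = 3) of DMSO counts. Each class without overlap reached p = 0.1 in the two-sided exact permutation test, the smallest that 3 against 3 libraries allow, and 0.113 after Benjamini-Hochberg adjustment over the 18 classes, kinds and features tested. Nuclear tRNA fragments as a whole did not separate the groups, with 3.15% ± 0.191 (SD, n = 3) and 3.21% ± 0.236 (SD, n = 3) and an exact p of 0.7, although their kinds shifted against each other. A lower share may reflect fewer reads of one class or more of another, and in such bulk libraries fewer cells of a type and less RNA per cell cannot be told apart. Reads inside Mir142, Mir142b and host genes were counted more than once by the authors, and without these copies the difference in the miRNA share was -22.7 points.

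**Figure D1:**
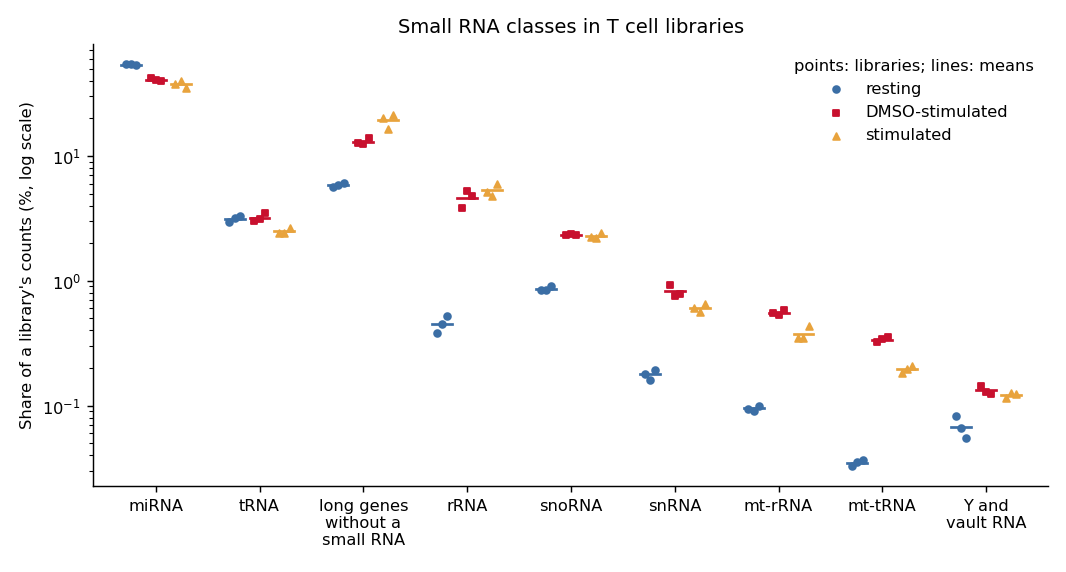
Share of each library's counts (percent, log axis) by RNA class in resting, DMSO-stimulated and stimulated T cells, with points for the 3 libraries of a group and lines for means. Apart from the tRNA class, the red DMSO points lie clear of the blue resting points, below them for miRNAs (41.0% against 54.0%) and above them elsewhere.

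Tested feature by feature with edgeR, 1760 of the 4408 features (39.9%) differed between DMSO and resting cells at an adjusted p under 0.05, 854 of them higher in DMSO cells (19.4%) and 906 lower (20.6%), with a median log2 fold of -0.02 over all features. TMM scaling sets that median near 0. With plain library totals the median rose by 0.66 and the calls became 1632 higher and 369 lower, and with factors taken from miRNAs alone it rose by 0.69 with 1542 higher and 345 lower. For log2 folds between about -0.7 and 0 the direction therefore depends on the scaling. Levels below are TMM-scaled counts in CPM (per 1000000 reads), given for libraries 1, 2 and 3.

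Among the 254 miRNA precursors 29 rose (19.4% of all features did) and 103 fell (20.6% of all features did), with a median log2 fold of -0.26. With library totals the miRNAs split into 100 higher and 61 lower with a median of 0.41, so the direction of the class as a whole was set by the scaling. The named miRNAs were those with the largest called folds at a mean of at least 20 CPM and no overlap, together with members of fixed lists.

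Of 13 miRNAs listed as induced by T cell activation, 4 rose (19.4% of all features did), 8 fell and 1 was not called, and the median log2 fold was -1.35. Mir155, which activated lymphocytes make from the Mir155hg transcript, had 3485, 3670 and 4086 CPM in resting and 13630, 12920 and 12220 CPM in DMSO cells. The DMSO libraries were all above the resting ones, by a log2 fold of 1.79 (SE 0.18, adjusted p = 9.92e-09). Its precursor lies in an exon of Mir155hg (GRCm38, chromosome 16, 84714140 to 84714204, plus strand).

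Mir146 is the precursor of miR-146a, a brake on NF-κB signalling through Traf6 and Irak1 (chromosome 11, 43374397 to 43374461, minus strand). It had 763.7, 871.1 and 889.3 CPM in resting cells and 3549, 3547 and 3384 CPM in DMSO cells. The groups stood well apart, with a log2 fold of 2.05 (SE 0.22, adjusted p = 2.53e-08). Its seed mate Mir146b did not follow, at 34.5 ± 1.06 CPM in resting and 22.5 ± 7.1 CPM in DMSO cells (SD, n = 3 each, log2 fold -0.61, adjusted p = 0.16).

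Mir132 and Mir212 share a transcript and a seed and rose together. Mir132 went from 574 ± 16.3 to 1329 ± 84.8 CPM (SD, n = 3 each, log2 fold 1.21, SE 0.21) and Mir212 from 138 ± 13.3 to 306 ± 49.2 CPM (log2 fold 1.15, SE 0.23). The other members of the activation list fell, apart from Mir146b. Mir182, which in helper T cells is known to target Foxo1, had 2394, 2717 and 2550 CPM in resting and 723.2, 685.9 and 660.5 CPM in DMSO cells, a log2 fold of -1.89 (SE 0.25, adjusted p = 6.02e-07). Its cluster mates on chromosome 6, Mir183 and Mir96, fell by 1.67 and 2.20 on the log2 scale.

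The hypoxia-responsive Mir210 fell from 4998 ± 482 to 1206 ± 38.8 CPM (SD, n = 3 each, log2 fold -2.05, SE 0.23). Mir221 and Mir222, neighbours on the X chromosome whose mature forms target the cell cycle inhibitor p27, fell by 2.20 and 2.08. Mir221 had 443, 480.2 and 510.2 CPM in resting and 109.4, 119.2 and 82.23 CPM in DMSO cells, with no overlap. Mir21a, one of the most abundant precursors, was at 127200, 130200 and 136400 CPM in resting and 53490, 49250 and 51490 CPM in DMSO cells (log2 fold -1.35, SE 0.3, adjusted p = 0.000555), and it lies in an exon of Vmp1, where its reads were counted again. Mir147 fell by 1.13. With library totals 4 of the list were still higher and 7 lower, Mir147 being no longer called.

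**Figure D2:**
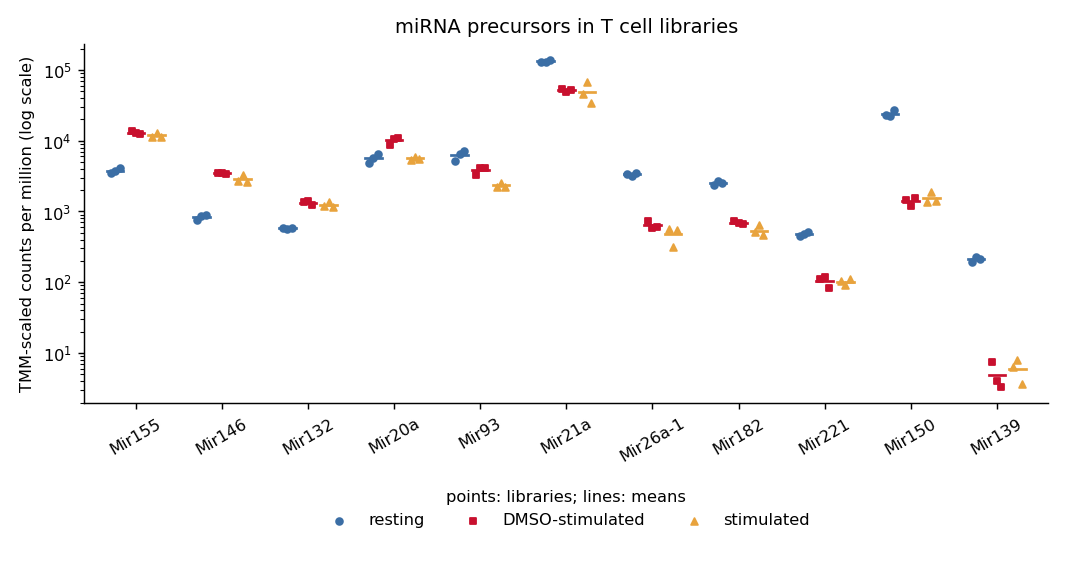
TMM-scaled CPM (log axis) of 11 miRNA precursors in the 3 resting, 3 DMSO-stimulated and 3 stimulated libraries, with lines for means. Mir155, Mir146, Mir132 and Mir20a lie higher in DMSO than in resting cells, and Mir150 and Mir139 lie lowest relative to rest (1393 against 24120 CPM and 4.94 against 210 CPM).

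Of 10 miRNAs listed for naive and resting T cells 9 were in the files, 8 fell (20.6% of all features did), none rose, and the median was -2.06. Mir150, which restrains Myb in lymphocytes, had 22850, 22530 and 26990 CPM in resting and 1454, 1176 and 1549 CPM in DMSO cells. Every DMSO library was far below every resting one, 17.3-fold in the means, with a log2 fold of -4.11 (SE 0.25, adjusted p = 1.53e-12). It lies on chromosome 7, 45121757 to 45121821, plus strand.

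Mir139, in an intron of Pde2a (chromosome 7, 101475376 to 101475443, plus strand), showed the lowest fold of any named miRNA. It had 190.1, 224 and 216.4 CPM in resting and 7.53, 3.97 and 3.32 CPM in DMSO cells, a log2 fold of -5.38 (SE 0.4, adjusted p = 7.14e-11). The DMSO values rest on few reads, which limits how finely the size of the fall can be given.

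Mir26a-1, Mir26a-2 and Mir26b, which lie in the phosphatase genes Ctdspl, Ctdsp2 and Ctdsp1, fell by 2.40, 2.40 and 2.06. The first of these 3 had 3380, 3182 and 3524 CPM in resting and 724.9, 582.5 and 602.1 CPM in DMSO cells. Mir26a-1 and Mir26a-2 give the same mature miRNA and may share reads. Mir342, in an intron of Evl, fell by 1.82 and Mir140, in Wwp2, by 1.61.

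Of the miR-101 genes, Mir101a fell and Mir101b did not pass the test, while with library totals Mir101a was not called (log2 fold -0.41, adjusted p = 0.0836) and Mir101b was called higher (1.16, adjusted p = 3.31e-05). Mir101a had 1127, 1256 and 1280 CPM in resting and 572.1, 580.3 and 580.9 CPM in DMSO cells (log2 fold -1.08, SE 0.24, adjusted p = 0.000573), while Mir101b, in an intron of Rcl1, had 1443, 1640 and 1777 against 2196, 2242 and 2351 CPM (log2 fold 0.48, adjusted p = 0.114). Neither pair of groups overlapped. The Mir101b call also depends on the libraries in the edgeR fit. It was called higher with only the 2 groups (0.50, adjusted p = 0.00417) or only the 12 cell libraries (0.52, 0.0205). The ratio of Mir101b to Mir101a within a library, which needs no scaling factor, was 1.28, 1.3 and 1.39 in resting and 3.84, 3.86 and 4.05 in DMSO cells.

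**Figure D3:**
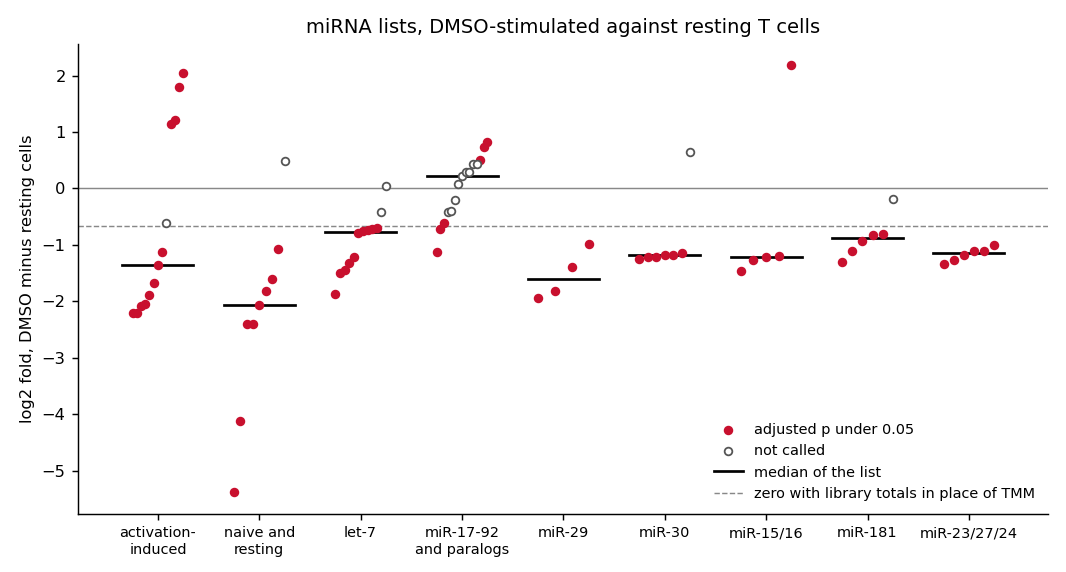
Log2 folds (DMSO minus resting cells) of the listed members of 9 miRNA lists, each point a precursor, filled where the adjusted p was under 0.05, with bars for list medians. The dashed line marks where 0 would lie with library totals; the naive and resting list (median -2.06) lies mostly below it, and the miR-17-92 list (median 0.22) lies around the solid line at 0.

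The let-7 family, which counters proliferation genes in many cells, had 10 of 12 members called lower and none higher (20.6% and 19.4% of all features), with a median of -0.77. Mirlet7b fell most, from 898 ± 73.7 to 246 ± 15.3 CPM (SD, n = 3 each, log2 fold -1.87, SE 0.23), and Mirlet7i went from 10290 ± 549 to 4111 ± 139 CPM (log2 fold -1.32). Mir98 had 1087 ± 55.5 and 1120 ± 45.9 CPM, with a log2 fold of 0.04 (adjusted p = 0.919). With library totals only 5 members were lower, 1 was higher and the median was -0.10.

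Of 15 members of the miR-17-92 cluster and its paralogs, which drive lymphocyte proliferation and survival, 3 rose and 3 fell, shares near those of all features (19.4% and 20.6%), with a median of 0.22. In the chromosome 14 cluster 2 of 6 members were called, both higher, and the log2 folds ran from -0.40 (Mir19b-1) to 0.83. From this cluster, in Mir17hg, Mir20a had 4811, 5719 and 6501 CPM in resting and 8803, 10670 and 10850 CPM in DMSO cells (log2 fold 0.83, SE 0.18, adjusted p = 0.000538). Mir17 went from 6880 ± 210 to 9759 ± 443 CPM (log2 fold 0.50, SE 0.17, adjusted p = 0.0189), a call that was lost without DMSO library 2 (adjusted p = 0.0597), without resting library 1 (0.063) or with tRNA loci summed and genes that hold a small RNA left out (0.0818). More of the list was called with only the 2 groups in the edgeR fit. Mir18 (0.46, adjusted p = 0.00935), Mir92-1 (0.46, 0.00196) and Mir106a (0.32, 0.0311) were then also higher. Mir19b-1 (-0.39, 0.0113) and Mir19b-2 (-0.40, 0.00863) were then also lower.

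All 3 members of the paralogous cluster in Mcm7 on chromosome 5 fell. Mir106b had 3418, 3679 and 4116 CPM in resting and 1698, 1615 and 1843 CPM in DMSO cells (log2 fold -1.12, SE 0.21), and Mir93 had a log2 fold of -0.71 (adjusted p = 0.00584) and Mir25 of -0.62 (adjusted p = 0.0207), the latter not called without DMSO library 3 (adjusted p = 0.0762) or resting library 2 (0.0598). With library totals Mir93 was at -0.04 and Mir25 at 0.05, both uncalled, so their direction depends on the scaling, and 10 of the 15 members were then higher and 1 lower. The ratio of Mir20a to Mir93, which have the same seed, needs no scaling factor and was 0.921, 0.892 and 0.918 in resting and 2.68, 2.62 and 2.68 in DMSO cells, and that of Mir17 to Mir106b rose from a geometric mean of 1.85 to 5.68. These ratios were chosen after their values were seen, and each reached the smallest exact permutation p of 0.1.

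Over all features 20.6% were lower. All 4 miR-29 members fell (median -1.60), as did all 6 of the miR-23/27/24 clusters (median -1.14), 6 of 7 in the miR-30 family (median -1.17) and 5 of 6 in the miR-181 family (median -0.88), a family that sets T cell receptor sensitivity. In the miR-15/16 family, known for limiting cell cycle genes, 4 of 5 listed members fell and Mir497 rose (median -1.21). Library totals left 3 of 4, 3 of 6, 6 of 7, 2 of 6 and 4 of 5 called lower, in the same order, with 1 miR-30 member called higher. With factors from miRNAs alone the miR-181 family had 1 member higher and 1 lower. Mir30e and Mir30f lie on opposite strands of the same stretch and had equal counts, so theirs are not separate falls. Other members, such as Mir24-1 and Mir24-2, give the same mature miRNA and may share reads.

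Mir497 and Mir497b lie on opposite strands of the same stretch and had equal counts, 25.62, 10.97 and 9.68 CPM in resting and 78.17, 77.78 and 54.38 CPM in DMSO cells (log2 fold 2.18, SE 0.3). Among the other miRNAs named for their high folds, Mir6236 rose by 2.86 (SE 0.25) from 27.7 ± 3.72 to 200.9 ± 27.2 CPM, Mir6240 by 2.43, Mir455 by 2.19 and Mir5099 by 1.84. Lowest after those already described were Mir28a, in an intron of Lpp, at -2.38, Mir322 on the X chromosome at -2.33 and Mir1843a at -2.28. Mir1843a lies inside the small Cajal body RNA Scarna3b, and the same reads were counted for both.

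Where at least 2 neighbouring miRNAs were called, they moved in the same direction in the fit of all 24 libraries. The precursors formed 31 clusters with gaps of at most 10000 bases, and none of them held calls in both directions. In 22 clusters at least 2 members were called, all lower in 19 and all higher in 3. In this fit 19.4% of all features were higher and 20.6% lower, and of the 254 miRNAs 29 were higher and 103 lower. With most miRNA calls lower, a shared direction within clusters is not by itself a result. With only the 2 groups in the edgeR fit, the chromosome 14 cluster held calls in both directions. Mir17 was then higher (0.52, adjusted p = 0.00103) and Mir19b-1 lower (-0.39, 0.0113). The counts also depend on the scaling: with library totals Mirlet7d, Mirlet7f-1 and Mirlet7a-1 were uncalled, at -0.04, -0.03 and -0.09. Members of a cluster share a transcript and can share reads, so they are not independent.

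As a share of miRNA counts alone, Mir142 held a mean of 24.2% in resting and 19.8% in DMSO cells, and Mir21a 13.8% and 11.4%. Mir150 held 2.37%, 2.34% and 2.92% of miRNA counts in resting and 0.299%, 0.253% and 0.378% in DMSO cells, and Mir155 0.361%, 0.382% and 0.442% against 2.8%, 2.78% and 2.99%. The ratio of Mir155 to Mir150 was thus 0.152, 0.163 and 0.151 in resting and 9.38, 11 and 7.89 in DMSO cells, 60.0-fold apart in the geometric means. Their log2 ratios of shares were -3.04 and 2.85, and without Mir142 and other twice-counted miRNAs, a denominator chosen after the data were seen, -3.28 and 2.62.

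Markers of other cells were low. Mir451a, the only one of 4 erythroid markers listed, had 31.41, 10.97 and 9.68 CPM in resting and 49.8, 42.01 and 45.09 CPM in DMSO cells (log2 fold 1.39, adjusted p = 0.00568). The epithelial pair Mir200c and Mir141 summed to between 88.8 and 103.3 CPM in resting and between 120.0 and 144.8 CPM in DMSO cells, with Mir200c called higher (log2 fold 0.81, adjusted p = 0.0174, and up to 0.0695 with 1 library left out) and Mir141 not, while the other 5 epithelial markers were not listed. Mir126a of platelets and endothelium was at 114 ± 3.75 and 142 ± 15.1 CPM (adjusted p = 0.313). The part of such cells in the results was not tested.

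tRNA fragments were read by kind, in the authors' names. The names 5FR, 3FR and 5_half_up refer to the end or portion of the tRNA, and no source used here defines them further. Cutting of tRNAs in the anticodon loop is a known response to stress, and short 5′ and 3′ fragments are known from Argonaute complexes. Of 780 tRNA features, 72 were higher and 373 lower in DMSO cells (19.4% and 20.6% of all features), with a median of -0.73, and with library totals 177 and 184 (median -0.06). Loci of a tRNA share reads, so counts were summed by anticodon and kind, which gave 170 fragments in a table of 3592 features of which 34.4% were called, 17.4% higher and 17.0% lower.

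Among these fragments 13 rose and 86 fell, with a median of -0.75, and library totals gave 39 and 36. Of 31 fragments of kind 5FR_1, 25 fell and none rose, with a median of -1.42, and with library totals 17 fell and 1 rose, with a median of -0.70. Lowest was that of tRNA-Leu-TAA, with 227.6, 229.2 and 230.9 CPM in resting and 26.31, 16.3 and 28.05 CPM in DMSO cells (log2 fold -3.28, SE 0.31, adjusted p = 4.2e-09). The fragments of tRNA-Arg-ACG and tRNA-SeC-TCA, the selenocysteine tRNA, fell by 2.83 and 2.61. That of tRNA-Lys-TTT had 1200, 1126 and 835.2 CPM in resting and 242.5, 158.1 and 150.5 CPM in DMSO cells, a log2 fold of -2.52 (SE 0.3). Of 17 fragments of kind 5FR_2, 15 fell (median -1.02), but with library totals 5 were lower and 1 higher (median -0.30), and with factors from miRNAs alone 3 and 1.

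The 5_half_up kind went against this. It held 0.277%, 0.313% and 0.256% of all counts in resting and 0.624%, 0.692% and 0.72% in DMSO cells, 2.41-fold more, while 5FR_1 went from 0.626% ± 0.0159 to 0.386% ± 0.0254 (SD, n = 3 each). The ratio of the kinds within a library was 0.429, 0.506 and 0.416 in resting and 1.51, 1.82 and 1.98 in DMSO cells. Of 17 summed 5_half_up fragments 6 rose and 1 fell, and with library totals 14 rose and none fell.

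The 5_half_up fragment of tRNA-Gly-TCC rose most, from 128.1, 140.6 and 103.2 CPM in resting to 480.2, 532.2 and 495.5 CPM in DMSO cells (log2 fold 2.02, SE 0.26, adjusted p = 4.64e-07). That of tRNA-Pro-AGG rose by 1.11 (SE 0.34) and that of tRNA-Glu-CTC by 1.01, from 649 ± 87.1 to 1304 ± 36.1 CPM (SD, n = 3 each). Besides these, the 3FR_2 fragment of tRNA-Asp-GTC rose by 1.40 (SE 0.26), and the 3FR_1 fragment of tRNA-Lys-TTT by 1.09 (SE 0.26), opposite to the 5FR_1 fragment of that tRNA. The 5_half_up fragment of tRNA-His-GTG fell by 0.82 (SE 0.27), a call lost with library totals (log2 fold -0.08) and without DMSO library 1 (adjusted p = 0.0763) or any single resting library (0.0822 to 0.0943).

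**Figure D4:**
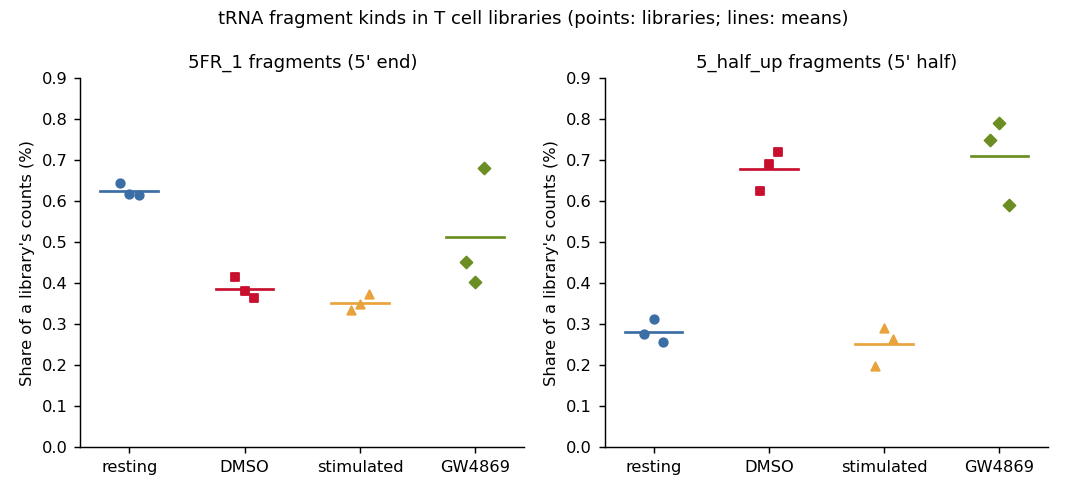
Share of each library's counts (percent) in 5FR_1 and 5_half_up tRNA fragments in 4 groups of T cells, with points for libraries and lines for means. The 5FR_1 share is lower in DMSO than in resting cells, and the 5_half_up share is high in DMSO (0.679%) and GW4869 cells (0.710%) and low in resting (0.282%) and stimulated cells (0.25%).

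Nucleolar and ribosomal RNA fragments were higher in DMSO cells. Of 147 snoRNAs 114 rose and 6 fell (19.4% and 20.6% of all features), with a median of 1.15, and library totals gave 135 and 2. Among named box C/D snoRNAs, which guide ribose methylation, 47 of 59 rose, and among named box H/ACA snoRNAs, which guide pseudouridylation, 16 of 18. All 5 Rnu3 features, the U3 snoRNA of ribosomal RNA processing, rose. Gm23212, a snoRNA in Gas5, had 76.87, 94 and 95.87 CPM in resting and 793.3, 729 and 590.9 CPM in DMSO cells (log2 fold 2.99, SE 0.21).

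Gm26205, in Rpl6, rose by 3.11 (SE 0.3), Snora16a by 2.78 and Snora61, in Snhg12, by 2.72. The 3 small Cajal body RNAs, which guide modification of spliceosomal RNAs, all fell, and with library totals 2 were called lower. Reads of Scarna3b were also counted for Mir1843a, so these are not separate falls. Scarna10 had 111.6, 110.5 and 110.8 CPM in resting and 37.64, 28.96 and 27.85 CPM in DMSO cells (log2 fold -1.81, SE 0.23), and Scarna3b fell by 2.06. Snora36b fell by 1.28 and Gm22009 by 1.47 (SE 0.5), neither called with library totals. The Gm22009 call was also lost without DMSO library 2 (adjusted p = 0.0747), DMSO library 3 (0.0652) or resting library 1 (0.0533).

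All 68 ribosomal RNA features rose (19.4% of all features did), with a median of 2.89, 56 of them copies of 5S rRNA that share reads. Rn18s-rs5, of the 18S RNA, had 3272, 3494 and 3655 CPM in resting and 19030, 19000 and 16510 CPM in DMSO cells (log2 fold 2.39, SE 0.18, adjusted p = 6.22e-11). Of 58 snRNA features 51 rose and 2 fell, with a median of 2.07. Rnu1a1, of the U1 particle that recognises 5′ splice sites, rose from 54.1 ± 9.5 to 235 ± 28.3 CPM (SD, n = 3 each) and Rnu7, of histone messenger processing, from 28 ± 4.62 to 125 ± 3.12 CPM. The minor spliceosome RNAs Rnu11 and Rnu12 had log2 folds of 0.53 and 0.36 (adjusted p = 0.0803 and 0.209).

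Rmrp, the RNA of an endonuclease that acts in ribosomal RNA processing, had 18.18, 36.82 and 29.91 CPM in resting and 221.2, 222 and 218.2 CPM in DMSO cells, with a log2 fold of 2.96 (SE 0.25, adjusted p = 5.06e-10). Rpph1, the RNA of RNase P, rose by 2.14. Rn7s1, of the signal recognition particle, was near the limit, with a log2 fold of 0.46 (adjusted p = 0.0459). With the replicate block its adjusted p was 0.053, and it was above 0.05 when any 1 of the 6 libraries was left out. Of the Y RNAs, Rny1 rose from 407 ± 50.2 to 829 ± 36.7 CPM (SD, n = 3 each, log2 fold 1.03, SE 0.2) while Rny3 did not pass the test (log2 fold -0.45, adjusted p = 0.101), nor did the vault RNA Vaultrc5 (-0.24, adjusted p = 0.602).

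All 10 listed mitochondrial tRNAs and both mitochondrial rRNAs rose (19.4% of all features did), with medians of 2.41 and 2.00. mt-Ta, the alanine tRNA (mitochondrial chromosome, 5018 to 5086, minus strand), had 34.72, 21.93 and 30.79 CPM in resting and 447.6, 470.7 and 468.2 CPM in DMSO cells, a log2 fold of 3.99 (SE 0.29, adjusted p = 4.31e-11). mt-Ti, for isoleucine, rose by 3.13 (SE 0.24). The lowest of the 10 was mt-Tc, for cysteine, at 1.91 (SE 0.27). Of the rRNAs mt-Rnr1 rose by 2.29 and mt-Rnr2 by 1.70. These directions did not change with library totals or with factors from miRNAs alone.

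**Figure D5:**
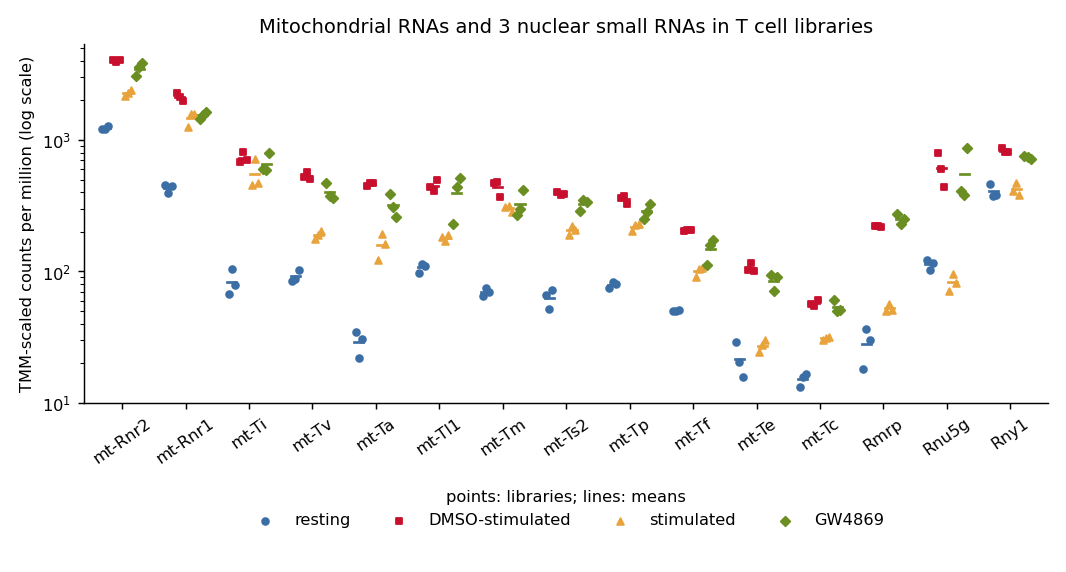
TMM-scaled CPM (log axis) of the 2 mitochondrial rRNAs, 10 mitochondrial tRNAs, Rmrp, Rnu5g and Rny1 in resting, DMSO-stimulated, stimulated and GW4869 cells, with points for libraries and lines for means. DMSO cells lie above resting cells for all 15 RNAs, and in stimulated cells Rnu5g and Rmrp have means of 82.9 and 52.7 CPM, against 613 and 220.5 CPM in DMSO cells.

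Counts of long genes are fragments mapped inside the gene and not messenger RNA levels. Of 2836 long genes without a listed small RNA 400 were higher and 349 lower (19.4% and 20.6% of all features), with a median of 0.01, and library totals gave 937 and 87 (median 0.67) and factors from miRNAs alone 839 and 68. Fragments of 4933404O12Rik rose from 6.67 ± 1.22 to 111 ± 5.25 CPM (SD, n = 3 each, log2 fold 4.06, SE 0.26) and those of Evc by 3.78. Gm13648 and Ttll10, which overlap on chromosome 4 and share reads, had log2 folds of -3.22 and -3.03.

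The highest and lowest named values of this class stand on lines that join the authors' 2 tables in more than 1 way. The second line of Flt3l had 10.75, 7.05 and 7.04 CPM in resting and 861.6, 772.2 and 728.8 CPM in DMSO cells, with means of 10.9 CPM in stimulated and 724.0 CPM in GW4869 cells. The second line of Pik3c2g had 64.9 ± 8.31 and 5.43 ± 0.777 CPM (SD, n = 3 each), with 70.1 and 6.81 CPM in stimulated and GW4869 cells. Their log2 folds were 6.56 and -3.57, and in both the DMSO libraries were near the GW4869 libraries and the resting near the stimulated ones. In each name the counts of one table are the same on lines where those of the other differ, so these folds set unlike lines against each other. On the first line of Flt3l the unscaled counts were 514, 491 and 500 in resting and 1488, 1360 and 1099 in DMSO cells. On the first line of Pik3c2g they were 79, 72 and 83 in resting and 119, 92 and 89 in DMSO cells, without the fall of the second line. Syp, on a single line, was at 84.6 ± 26.4 CPM in resting, 13.3 ± 1.7 in DMSO, 79.2 in stimulated and 17.9 in GW4869 cells.

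The question whether the 2 stimulated groups differed from rest in the same way is answered by testing one against the other, since both use the same resting libraries. Against those, 2033 features (46.1%) were called in stimulated cells, 1014 higher (23.0%) and 1019 lower (23.1%). Between DMSO and stimulated cells 1279 features (29.0%) were called, 523 higher in DMSO cells (11.9%) and 756 lower (17.2%). With library totals that split was 376 and 853, with RLE size factors 726 and 631, and with factors from miRNAs alone 225 and 1043, so small differences in either direction are set by the scaling. Here, as above, vehicle, culture and tabulation cannot be told apart.

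Mir150, Mir155, Mir146 and Mir139 did not pass this test, which does not show that they were equal. Mir150 differed by -0.16 (adjusted p = 0.614), after log2 folds of -4.11 and -3.95 against rest. Mir155 had 1.79 and 1.66 against rest and differed by 0.13 (adjusted p = 0.62), Mir146 had 2.05 and 1.76 and differed by 0.30 (adjusted p = 0.3), and Mir139 had -5.38 and -5.14 and differed by -0.25 (adjusted p = 0.731). Of the 254 miRNAs 43 were higher in DMSO cells and 5 lower (11.9% and 17.2% of all features), and with factors from miRNAs alone 11 and 23. In the miR-17-92 list 7 of 15 were higher, Mir20a by 0.85 (adjusted p = 0.000923), and with factors from miRNAs alone 2.

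The miRNAs furthest apart were Mir449a, in Cdc20b, with 101 ± 3.32 CPM in resting, 123 ± 11.7 in DMSO and 48.2 ± 6.55 in stimulated cells (SD, n = 3 each), which is 1.36 higher with DMSO, Mir219a-1 and its opposite-strand copy Mir219c (1.35) and Mir449c (1.18). Mir2137 was lower with DMSO by 2.05, at 9.34 ± 2.27, 31.1 ± 1.49 and 129 ± 2.5 CPM in the same order. Mir6240, Mir5121 and Mir6236 were lower by 1.51, 1.34 and 1.12. Mir5121 lies in an exon of Rpl13a on the same strand, and whether its reads come from that gene was not tested.

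The 5_half_up tRNA fragments differed between the 2 stimulated groups. Of 17 summed 5_half_up fragments 16 were higher in DMSO than in stimulated cells and none lower (10.6% and 17.8% of all summed features), with a median of 1.59, and 15 were higher with factors from miRNAs alone. Against the shared resting libraries 13 of the 17 fell and none rose in stimulated cells, where 39.7% of all summed features were called and 17.7% were lower. That count depends on the scaling: with library totals 5 fell, and with factors from miRNAs alone 3 fell and 1 rose. That of tRNA-Gly-TCC differed by 2.38 (adjusted p = 2.95e-07) and that of tRNA-iMet-CAT, the initiator, by 2.65 (adjusted p = 3.88e-08). The latter was at 153.5 ± 12 CPM in resting, 272.8 ± 28.3 in DMSO and 43.6 ± 12.3 in stimulated cells (SD, n = 3 each). The 5_half_up share of counts was 0.679% in DMSO and 0.710% in GW4869 cells, against 0.282% in resting and 0.25% in stimulated cells, so the 2 groups of each of the authors' tables were near each other.

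Among the other classes 9 of 10 mitochondrial tRNAs were higher in DMSO than in stimulated cells (11.9% of all features), mt-Te by 1.97 and mt-Ta by 1.55, and 6 were called with factors from miRNAs alone. Rnu5g, a U5 snRNA, had 114 ± 10.5 CPM in resting, 613 ± 182 in DMSO, 82.9 ± 12.3 in stimulated and 554.7 in GW4869 cells (SD, n = 3 each) and differed by 2.89 (adjusted p = 3.35e-07). Rmrp differed by 2.07 (adjusted p = 3.48e-07) and Rny1 by 0.97. Rn18s-rs5 was lower in DMSO than in stimulated cells by 0.74 (adjusted p = 0.00159), with 30270 ± 775 CPM in the latter (SD, n = 3).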

How the data were processed

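For each small RNA library of CD4+ T cells the authors deposited 1 table of read counts per feature. The submitters' processing notes name Bowtie and the builds GRCm38 and mm10; the aligner's settings and the counting rule are not given in the sources used here. Each file had 4441 lines. After 33 lines repeated in full were dropped, 4408 features were left, none with a count under 4. Coordinates are GENCODE M21 (GRCm38).

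Counts were fitted with edgeR 4.0.16 (R 4.3.3, limma 3.58.1) by its quasi-likelihood test, with all 24 libraries in 8 groups, TMM factors and the filterByExpr rule with a minimum count of 10, which removed no feature. Features with a p under 0.05 after Benjamini-Hochberg adjustment over the whole table were called. Library totals were 1551155 to 2268358 in the 6 libraries compared. Shares and ratios were compared with two-sided exact permutation tests (scipy 1.17.1). The scripts were tested on simulated data. The features named were the 8 miRNAs, and the 4 summed tRNA fragments, snoRNAs and other features, with the highest and lowest called folds at 20 CPM or more and no overlap, the 4 miRNAs each way furthest from stimulated cells, and members of lists and classes. The members and lists were chosen with earlier results of these data known.

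Same-numbered DMSO and resting libraries deviated together over 1920 features (correlations of 0.441, 0.352 and 0.31, against -0.257 to -0.073 for the others), so the numbers were taken to pair the libraries in the replicate block. The main edgeR tests and the exact permutation tests did not use this pairing. Deviations from a group mean cancel within the group, so positive correlations for some pairs force negative ones for others. Alternatives were RLE size factors, library totals, factors from miRNAs alone, DESeq2 1.42.0, no filter, a stricter filter, fewer groups in the fit, a replicate block, each library left out, summed tRNA loci, and other denominators for shares. The share of miRNA counts without twice-counted miRNAs was added after the data were seen. Libraries of extracellular vesicles entered the fit and are not described.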

Additional observations from a re-analysis of the deposited data

Results flagged for a closer look

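For 77 of the 190 features examined singly, the effect against resting cells differed between DMSO and stimulated cells, by edgeR's test of DMSO against stimulated cells at an adjusted p under 0.05 (29.0% of all features passed it). The 190 were chosen features, so the 2 shares cannot be compared. Mir449a, Mir449c, Mir219a-1, Mir219c, Mir2137, Mir5121, Mir6236 and Mir6240 met a naming rule that required passing this same test. That they passed it is therefore no result. Values are log2 folds, DMSO minus stimulated cells, and no cause was tested; vehicle, culture and separate tabulation cannot be told apart. With factors from miRNAs alone the median of all features moved by -0.36, so the smaller positive values depend on the scaling. Higher in DMSO cells among the 5_half_up tRNA fragments were tRNA-iMet-CAT (2.65), tRNA-Gly-TCC (2.38), tRNA-Lys-CTT (2.21), tRNA-Pro-TGG (2.15), tRNA-Lys-TTT (1.90), tRNA-Pro-AGG (1.80), tRNA-Glu-CTC (1.74), tRNA-Pro-CGG (1.65), tRNA-Val-CAC (1.59), tRNA-Val-TAC (1.59), tRNA-Gly-CCC (1.47), tRNA-Glu-TTC (1.36), tRNA-Val-AAC (1.36), tRNA-Gly-GCC (1.17), tRNA-His-GTG (1.11) and tRNA-Asp-GTC (1.01). Higher in DMSO cells among the 5FR_1 tRNA fragments was tRNA-Gly-TCC (1.10). Lower among the 5FR_1 tRNA fragments were tRNA-Trp-CCA (-0.69), tRNA-Leu-CAG (-0.79), tRNA-Leu-TAA (-0.92) and tRNA-Leu-CAA (-0.97). The mitochondrial RNAs that were higher in DMSO cells were mt-Te (1.97), mt-Ta (1.55), mt-Tv (1.5), mt-Tl1 (1.32), mt-Tf (1.04), mt-Ts2 (0.92), mt-Tc (0.88), mt-Rnr2 (0.81), mt-Tp (0.69), mt-Tm (0.54) and mt-Rnr1 (0.53). The let-7 miRNAs that were higher in DMSO cells were Mirlet7a-1 (0.80), Mirlet7a-2 (0.71), Mir98 (0.70), Mirlet7f-1 (0.68), Mirlet7f-2 (0.68) and Mirlet7i (0.61). The miR-30 and miR-181 miRNAs that were higher in DMSO cells were Mir30a (1.04), Mir181b-1 (0.86), Mir181b-2 (0.82), Mir30c-1 (0.65), Mir30d (0.61), Mir30b (0.58) and Mir30c-2 (0.56). The other miRNAs that were higher in DMSO cells were Mir449a (1.36), Mir219c (1.35), Mir219a-1 (1.35), Mir449c (1.18), Mir455 (1.08), Mir18b (0.97), Mir20a (0.85), Mir92-1 (0.77), Mir101b (0.71), Mir93 (0.71), Mir101a (0.70), Mir25 (0.63), Mir20b (0.60) and Mir17 (0.50). Lower among the other miRNAs were Mir146b (-1.0), Mir6236 (-1.12), Mir5121 (-1.34), Mir6240 (-1.51) and Mir2137 (-2.05). Higher in DMSO cells among the remaining small RNAs and long genes were Flt3l (second line) (6.14), Rnu5g (2.89), Rmrp (2.07), Rny1 (0.97), Rny3 (0.94) and Gm23212 (0.62). Lower among the remaining small RNAs and long genes were Scarna10 (-0.69), Rn18s-rs5 (-0.74), 4933404O12Rik (-1.08), Gm22009 (-1.38), Evc (-1.41), Syp (-2.58) and Pik3c2g (second line) (-3.68). The Flt3l and Pik3c2g values set unlike lines of the authors' 2 tables against each other.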

How the results depend on the processing

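The replicate block gave 1757 calls, 850 higher and 907 lower, and changed the call of Rn7s1 only among the 190 single features. RLE size factors changed no call of these and no direction of a called one. Leaving out the filter could change nothing, since the filter had removed no feature. With only the 2 groups in the fit 15 of the 190 gained and 1 lost a call. With only the 12 cell libraries 9 gained and 0 lost a call. Leaving out 1 library gave 1549 to 1615 calls, 120 to 124 miRNAs and 80 to 92 summed tRNA fragments. Among the single features 42 calls were lost in 1140 refits. No feature called in the main fit or the refit changed direction. Features uncalled in both were not counted and could change sign, as Mir219c did (0.12 in the main fit, as low as -0.05). For the other comparisons leaving out 1 library gave 941 to 1179 calls (DMSO against stimulated cells) and 1807 to 1925 (stimulated against resting cells).

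With library totals 3 of the 190 features reversed, 26 lost and 26 gained a call, and with factors from miRNAs alone 4, 27 and 26. A reversal was counted only where the feature was called in the main or the alternative fit. Other features changed sign without a call in either. With library totals Mir19b-1 went from -0.40 to 0.27 and Mirlet7e from -0.41 to 0.25. The median of the miRNAs reversed to 0.41 and 0.43, Mir19a to 0.47 and 0.50, Mir25 to 0.05 and 0.07, and the tRNA-Val-AAC 5_half_up fragment to 0.71 and 0.76 in the same order. Mir181b-1 reversed to 0.50 with factors from miRNAs alone.

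Without genes that hold a small RNA and second copies in the denominator, the differences in share were, in percentage points, -22.7 for miRNAs, -0.606 for tRNAs (reversed), 0.517 for mitochondrial tRNAs, 0.775 for mitochondrial rRNAs, 7.09 for rRNAs, 2.37 for snoRNAs, 1.07 for snRNAs, 0.097 for Y and vault RNAs and 11.1 for long genes. With repeated lines kept the snoRNA difference was 1.90. With 1 library left out the differences ranged from -13.7 to -12.5 (miRNAs), -0.0718 to 0.153 (tRNAs, also -0.0373 without resting library 1), 0.296 to 0.312 (mitochondrial tRNAs), 0.444 to 0.473 (mitochondrial rRNAs), 3.84 to 4.57 (rRNAs), 1.47 to 1.5 (snoRNAs), 0.591 to 0.677 (snRNAs), 0.0585 to 0.0721 (Y and vault RNAs) and 6.74 to 7.42 (long genes). The cause of other changes was not tested. Features with few reads, such as Mir139 in DMSO cells, are limited by depth, and features under 4 counts in a library are not listed.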
